A study of Mus musculus with 9 samples.

Results

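Macrophages that gather in a scarring liver can be recognised by a small set of genes, and the levels of 10 of them were followed here in livers given recombinant human cytoglobin. The 10 genes were picked by symbol from the gene table, as markers named for scar-associated and for infiltrating macrophages, and all 10 were present among its 24532 genes and passed the filter on low counts that left 14731 genes tested. The rule used gene symbols alone, but the 10 genes were chosen with earlier results of these data known. After 2 weeks of cytoglobin, Gpnmb, Mmp12 and Cx3cr1 fell 3.26-fold, 2.56-fold and 1.95-fold. After 5 weeks, Chil3 fell 4.23-fold and Cx3cr1 fell 2.22-fold. The change of Cd68, a marker of all macrophages, was -0.31 ± 0.28 (log2, SE) after 2 weeks and -0.59 ± 0.28 after 5 weeks and passed the test in neither.

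The liver holds resident macrophages, the Kupffer cells, and during injury it takes up monocytes from the blood that turn into macrophages. Ccr2 and Cx3cr1 are the chemokine receptors that bring monocytes out of the marrow and hold them in tissue. In fibrotic human liver, macrophages that carry TREM2 and CD9 lie within the scar, and related mouse cells rich in Gpnmb, Spp1, Lgals3 and Mmp12 occur around damaged or lipid-laden tissue. Such cells take up debris and lipid, and they release factors that act on the collagen-making myofibroblasts as well as enzymes that break matrix down.

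All 9 libraries were of whole liver from wild-type C57BL/6 mice injected intraperitoneally with rising doses of thioacetamide (TAA), a hepatotoxin that produces fibrosis, during 10 weeks. The TAA group had saline (replicates 12, 13 and 14). The other groups had cytoglobin (rhCYGB), a haem protein, intravenously at 2 mg/kg, 2 times a week, over the final 2 weeks (replicates 17, 18 and 19) or the final 5 weeks (replicates 23, 27 and 28). Every group had thus been exposed to TAA and no healthy liver was analysed here, so the level that TAA itself set cannot be given. Livers were taken 2 days after the last dose. Whether the numbers stand for different mice is not given in the labels, and a p-value here reflects how far the samples of a group vary, which may be technical.

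Libraries held 55655727 to 87289945 estimated reads. The summed level of 15 hepatocyte markers was 116000 to 128000 in CPM, reads scaled to a common library size, in the TAA livers. It was 131000 to 167000 in the 2-week group and 132000 to 168000 in the 5-week group, so both rhCYGB ranges lay above TAA. None of the 15 was absent. Replicate 23 stood apart on the first principal component, which held 32.3% of the variance, at -78.8 against -20.2 to 44.1 for the other libraries. It was also the lowest library of its group for 6 of the 10 macrophage genes, and replicate 17 was the lowest of its group for 5. In whole liver, fewer macrophages and less of a transcript in each macrophage cannot be told apart.

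By FPKM, which corrects for transcript length, the level of Spp1 was the highest of the 10 genes in the TAA livers, at 315 ± 63.4 (SD, n = 3). Lgals3 followed at 70.0 ± 4.65, and then Cd9 at 48.8 ± 3.85 and Cd68 at 42.0 ± 5.33, whose libraries overlapped. Trem2 (15.5 ± 2.03) and Gpnmb (15.1 ± 2.83) overlapped as well. These levels place the broadly expressed genes at the top and the receptors of monocyte recruitment at the bottom. Mmp12 stood at 7.996 ± 1.49, Ccr2 at 4.22 ± 0.584, Chil3 at 2.98 ± 0.985 (overlapping Ccr2), and Cx3cr1 at 1.87 ± 0.163. After 2 weeks of rhCYGB, Gpnmb stood at 3.74 ± 1.37 FPKM, clear of Trem2 at 8.09 ± 2.08 and level with Mmp12 at 2.47 ± 0.108 within their spread. After 5 weeks, Chil3 at 0.598 ± 0.161 FPKM lay last in the order, overlapping Cx3cr1 at 0.721 ± 0.149.

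**Figure D1:**
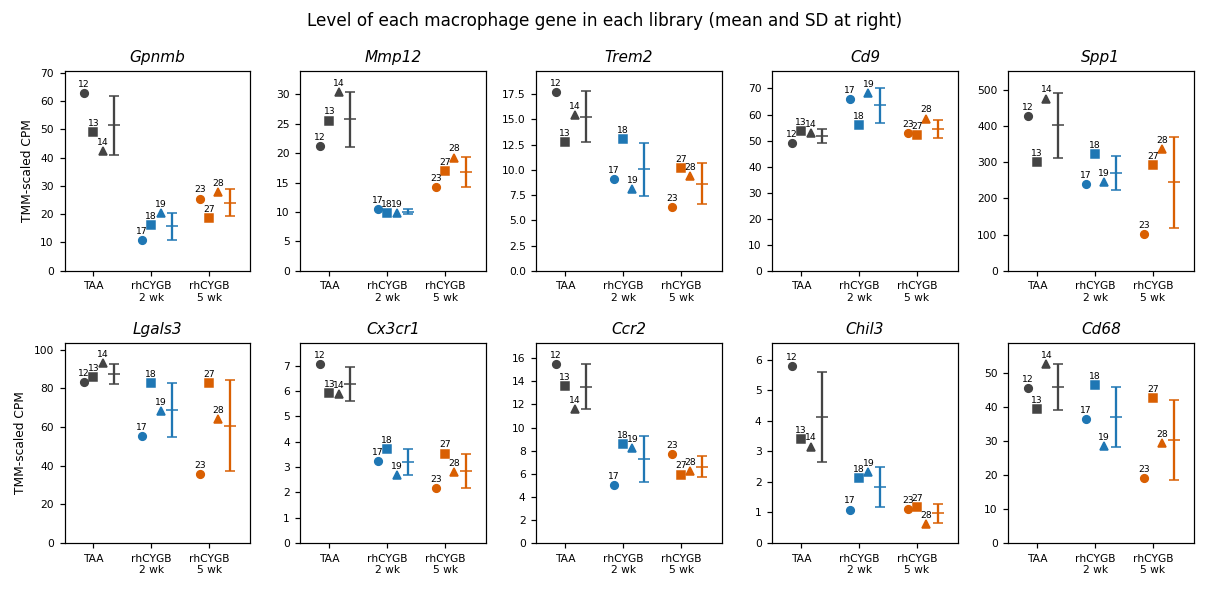
Level of each of the 10 macrophage genes in each library (TMM-scaled CPM on linear axes that start at 0; points are libraries with their replicate number, bars the mean and SD of 3). For Gpnmb, the 3 TAA libraries sit between 42.4 and 62.8 CPM and all 6 rhCYGB libraries between 10.8 and 27.9, while the Cd68 libraries of the 3 groups overlap.

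Gene counts were scaled to the library size corrected by TMM, a factor that offsets differences in RNA composition, and are given as CPM. Gpnmb, glycoprotein NMB, is a membrane and lysosomal protein of phagocytes. Its gene (gene ID 93695) lies at chr6:49036518-49058182 of mm10. The TAA libraries held 62.8, 49.1 and 42.4 CPM, the 2-week libraries 10.8, 16.2 and 20.3, and the 5-week libraries 25.5, 18.6 and 27.9, in replicate order. Every rhCYGB library was below every TAA library, and the 2-week and 5-week ranges overlapped. The log2 change was -1.70 ± 0.25 (SE) after 2 weeks, with an adjusted p of 0.0240 in edgeR's quasi-likelihood F test, so the level was 69.3% lower. After 5 weeks it was -1.10 ± 0.25, and the adjusted p of 0.0614 missed the 0.05 threshold. The 5-week change passed in 4 of 9 alternatives and in 0 of the 9 fits without 1 library. The 4 were library totals alone (adjusted p 0.0478), DESeq2 (0.00154), log2(FPKM + 1) (0.0283) and removal of a gene length trend (0.0322). The 2-week call ended without TAA replicate 12, 13 or 14 (adjusted p 0.0721, 0.117 and 0.0735) or without 2-week replicate 17 or 18 (0.0835 and 0.0648), with the log2 change still between -1.93 and -1.50.

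Mmp12 encodes macrophage elastase, an enzyme that cuts elastin and other matrix proteins (gene ID 17381, chr9:7344397-7360461). Its TAA libraries held 21.2, 25.5 and 30.4 CPM. The 2-week libraries were close together at 10.5, 9.76 and 9.86 CPM, and the 5-week libraries held 14.2, 16.95 and 19.2 CPM. The 3 groups did not overlap, with the 2-week group lowest and the 5-week group between it and TAA. That made the log2 change -1.36 ± 0.16 after 2 weeks (adjusted p = 0.0153) and -0.61 ± 0.16 after 5 weeks (adjusted p = 0.0878). The 5-week change passed in 3 of 9 alternatives and in 0 of the 9 fits without 1 library. The 3 were library totals alone (adjusted p 0.0478), DESeq2 (0.0179) and log2(FPKM + 1) (0.0358). The 2-week call ended without TAA replicate 13 or 14 (adjusted p 0.0871 and 0.0699) or 2-week replicate 17 or 18 (0.0740 and 0.0550). Between the courses, Mmp12 was 1.67-fold higher after 5 weeks than after 2 weeks (log2 0.74 ± 0.16), with an adjusted p of 0.139, or 0.0419 without 5-week replicate 27. Of the FPKM assigned to the gene, transcript variant 1 held at least 99.86% in the TAA libraries, all in the 2-week libraries and 98.38% in 5-week replicate 27. In 5-week replicate 23 it held 68.15%, with 625 estimated reads, and variant 2 held 31.85%.

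In all, 3 of the 10 genes were called lower after 2 weeks, where 1.34% of all tested genes were called lower. After 5 weeks 2 of the 10 were called lower, where the share among all tested genes was 0.604%. The log2 change was below 0 for 9 of 10 in each course, against 52.9% and 48.6% of all tested genes. The groups did not overlap, with rhCYGB lower, for 6 of 10 genes after 2 weeks (16.3% of all tested genes) and for 7 of 10 after 5 weeks (13.4%). The median log2 change of the 10 was -0.75 after 2 weeks and -0.77 after 5 weeks, beside -0.03 and 0.01 over all tested genes. Both comparisons use the same 3 TAA libraries, so a high or low TAA library moves both. Because the 10 genes were chosen with earlier results of these data known, these counts and shares are description only.

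**Figure D2:**
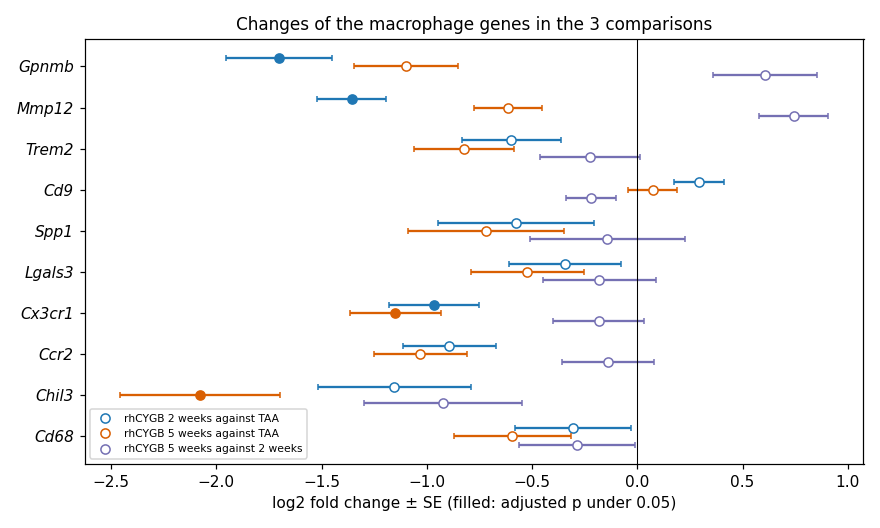
Log2 change of each of the 10 genes in the 3 comparisons with its standard error; filled points passed an adjusted p under 0.05 and open points did not. Only Gpnmb, Mmp12 and Cx3cr1 pass after 2 weeks and Cx3cr1 and Chil3 after 5 weeks, and Cd9 alone lies above 0 in both courses, though below 0 with library totals alone (-0.04 and -0.14).

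The bases upstream of the start sites are shown for the genes called in either course and for Trem2 and Cd68, which edgeR called in neither. Each window holds the 250 bases before the start in RefSeq's GRCm38.p6 table, written 5′ to 3′ on the gene's strand, and all 10 genes matched the table, with 12 windows. Capitals mark matches on either strand to GAGGAA, the core bound by PU.1, a factor of myeloid cells, and to TGANTCA, the AP-1 site. The CACGTG element bound by MITF and TFE factors of lysosomal genes was searched for as well. No match overlapped another. For Mmp12 the window shown is that of variants 1 and 2.
Gpnmb, chr6:49036268-49036517, plus strand: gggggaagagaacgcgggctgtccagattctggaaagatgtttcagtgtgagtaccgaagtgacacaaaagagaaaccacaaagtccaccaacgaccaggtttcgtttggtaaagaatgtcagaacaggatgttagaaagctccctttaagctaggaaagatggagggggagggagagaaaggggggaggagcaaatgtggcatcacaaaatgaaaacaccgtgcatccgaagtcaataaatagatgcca
Mmp12, chr9:7347124-7347373, plus strand: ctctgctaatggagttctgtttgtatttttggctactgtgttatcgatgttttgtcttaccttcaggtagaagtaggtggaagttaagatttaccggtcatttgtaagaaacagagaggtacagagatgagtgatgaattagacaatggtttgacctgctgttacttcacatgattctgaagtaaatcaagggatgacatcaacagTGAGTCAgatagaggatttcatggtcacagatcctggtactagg
Trem2, chr17:48346151-48346400, plus strand: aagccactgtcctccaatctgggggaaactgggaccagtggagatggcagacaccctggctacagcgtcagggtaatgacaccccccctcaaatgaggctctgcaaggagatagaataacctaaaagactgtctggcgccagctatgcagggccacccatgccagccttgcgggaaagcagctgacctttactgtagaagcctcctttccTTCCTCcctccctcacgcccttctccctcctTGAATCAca
Cx3cr1, chr9:120068297-120068546, minus strand: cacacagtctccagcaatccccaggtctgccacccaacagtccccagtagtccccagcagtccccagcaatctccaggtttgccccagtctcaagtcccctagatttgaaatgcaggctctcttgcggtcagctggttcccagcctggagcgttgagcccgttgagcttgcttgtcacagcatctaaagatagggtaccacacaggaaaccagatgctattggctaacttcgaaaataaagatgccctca
Chil3, chr3:106167565-106167814, minus strand: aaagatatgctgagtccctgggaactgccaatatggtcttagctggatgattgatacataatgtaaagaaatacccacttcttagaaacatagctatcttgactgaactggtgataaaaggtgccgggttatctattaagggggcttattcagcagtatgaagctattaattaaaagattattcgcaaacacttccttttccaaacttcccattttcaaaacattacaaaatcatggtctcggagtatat
Cd68, chr11:69666171-69666420, minus strand: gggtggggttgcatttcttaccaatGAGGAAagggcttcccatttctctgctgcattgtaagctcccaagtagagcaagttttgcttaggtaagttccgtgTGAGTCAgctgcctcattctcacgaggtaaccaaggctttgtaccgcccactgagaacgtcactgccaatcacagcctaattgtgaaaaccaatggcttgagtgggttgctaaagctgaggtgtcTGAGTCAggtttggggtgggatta

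The AP-1 letters stood 44 to 38 bases before the Mmp12 start, 9 to 3 bases before the Trem2 start, and at 2 places before the Cd68 start, and so in 3 of the 10 genes, where 6.75% of 32851 windows of the same length held them. The PU.1 core stood in a window of 4 of the 10 genes (Mmp12, Trem2, Spp1 and Cd68), beside 23.3% of all windows. For Mmp12 it was in the other window, not in the one shown for variants 1 and 2. Mmp12 and Spp1 had 2 windows each, so counts per gene stand here beside shares per single window. The CACGTG letters were in none of the 12 windows and in 6.02% of all. Gpnmb, Cx3cr1 and Chil3 held none of the 3 motifs in these bases, so the genes called lower did not share a searched motif. A match is only a run of letters, and binding was not measured.

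Trem2 and Cd9 define scar-associated macrophages in human liver. Trem2 is a lipid-sensing receptor that signals through the adaptor Tyrobp (gene ID 83433, chr17:48346401-48352276). Its levels were 17.7, 12.7 and 15.4 CPM in TAA, 9.09, 13.1 and 8.07 after 2 weeks, and 6.30, 10.2 and 9.42 after 5 weeks. The 2-week range overlapped TAA through replicate 18, and the 5-week libraries were all below TAA. The log2 change came to -0.60 ± 0.24 (adjusted p = 0.165) and -0.82 ± 0.24 (adjusted p = 0.109), and neither passed. Under alternatives, Trem2 passed in both courses with library totals (adjusted p 0.0371 after 2 weeks, at a log2 change of -0.93, and 0.0478 after 5 weeks), with log2(FPKM + 1) (0.0285 and 0.0289) and with the length trend removed (0.0333 and 0.0406), and after 5 weeks also in DESeq2 (0.0223). Cd9, a tetraspanin of many cell types (gene ID 12527, chr6:125460266-125494755), held 48.9, 53.7 and 52.9 CPM in TAA, 66.1, 56.0 and 68.4 after 2 weeks, and 52.9, 52.1 and 58.5 after 5 weeks. It was the 1 gene of the 10 whose 2-week libraries all lay above TAA, where 17.3% of all tested genes did. Its log2 change was 0.29 ± 0.12 after 2 weeks (adjusted p = 0.173) and 0.07 ± 0.12 after 5 weeks (adjusted p = 0.790), and the sign turned to -0.04 and -0.14 with library totals alone and to -0.05 and -0.15 on the log2(FPKM + 1) scale.

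Spp1 encodes osteopontin, a secreted ligand of Cd44 and integrins (gene ID 20750, chr5:104435111-104441053). It held 429, 301 and 476 CPM in TAA, 239, 323 and 246 after 2 weeks, and 102, 293 and 337 after 5 weeks. The groups overlapped in both comparisons, and replicate 23 was far below the other 5-week libraries. The log2 change was -0.58 ± 0.37 after 2 weeks (adjusted p = 0.364) and -0.72 ± 0.37 after 5 weeks (adjusted p = 0.322), or -0.37 without replicate 23. Lgals3, galectin-3, a sugar-binding protein of phagocytes (gene ID 16854, chr14:47373860-47386167), held 83.1, 85.8 and 92.9 CPM in TAA, 55.1, 83.0 and 68.4 after 2 weeks, and 35.6, 82.6 and 64.0 after 5 weeks. All 6 rhCYGB libraries were below the lowest TAA library, by little in replicates 18 and 27. Its log2 change was -0.34 ± 0.27 (adjusted p = 0.451) and -0.52 ± 0.27 (adjusted p = 0.319), and the 5-week change was -0.27 without replicate 23 and -0.81 without replicate 27.

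Spp1, Lgals3 and Cd9 are also made by bile duct cells, and Spp1 and Lgals3 by other cells of the scar. The 16 cholangiocyte and ductular markers summed to 174 to 243 CPM in the TAA livers, to 160 to 222 in the 2-week group and to 111 to 181 in the 5-week group, with none absent from all libraries. Of the 15 that were tested, 0 were called in edgeR in either course and 1 was lower at an unadjusted p under 0.05 in each. Of all tested genes, 10.5% were lower and 12.9% higher at that p after 2 weeks, and 9.62% and 9.59% after 5 weeks. DESeq2 called 1 of the 15 lower in each course. Of all 14731 tested genes, it called 1724 after 2 weeks (996 higher) and 1178 after 5 weeks (624 higher). The median log2 change of the 15 ductular markers was -0.08 after 2 weeks and -0.58 after 5 weeks. Their part in the values of Spp1, Lgals3 and Cd9 was not tested.

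Cx3cr1, the receptor of fractalkine, is carried by monocytes and by macrophages derived from them (gene ID 13051, chr9:120048683-120068296). It held 7.07, 5.92 and 5.88 CPM in TAA, 3.22, 3.71 and 2.701 after 2 weeks, and 2.18, 3.54 and 2.80 after 5 weeks. The 6 rhCYGB libraries were all below the 3 TAA libraries, and the courses overlapped. Cx3cr1 was the only 1 of the 10 called in both courses, with a log2 change of -0.97 ± 0.22 after 2 weeks (adjusted p = 0.0450) and -1.15 ± 0.22 after 5 weeks (adjusted p = 0.0468). Both adjusted p-values lie close to the threshold. When 1 library was left out, the 2-week call held only without 5-week replicate 23 or 27 (adjusted p 0.0221 and 0.0302) and ended without any other library (0.0703 to 0.166), and the 5-week call held only without replicate 27 (0.0298) and ended without any other (0.0634 to 0.165). With upper quartile scaling both calls ended (0.05425 and 0.0508). The 2-week call also ended with the length trend removed (0.0854). The 5-week call also ended with no filter (0.0509) and with only the 2 groups compared (0.0854). Both calls held with library totals alone, DESeq2 and log2(FPKM + 1). T and NK cells can carry Cx3cr1 as well. Their 15 markers summed to 4.07 to 6.16 CPM in the TAA livers, with 11.6 to 17.9 in the 2-week group and 4.46 to 14.7 in the 5-week group. The 2-week range lay above TAA and the 5-week range overlapped it. The part of these cells in the values of Cx3cr1 was not tested.

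Ccr2, the receptor of Ccl2 that lets monocytes leave the marrow (gene ID 12772, chr9:124102183-124109140), held 15.5, 13.6 and 11.6 CPM in TAA. It held 5.00, 8.60 and 8.25 after 2 weeks and 7.67, 5.93 and 6.26 after 5 weeks. All rhCYGB libraries were lower than all TAA libraries. On the log2 scale the change was -0.89 ± 0.22 (adjusted p = 0.0571) and -1.03 ± 0.22 (adjusted p = 0.0573), so Ccr2 missed the threshold narrowly in both courses, and it passed after 2 weeks without replicate 23 (adjusted p = 0.0388). DESeq2 called it in both, with adjusted p-values of 0.00449 and 0.00119.

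Chil3, a chitinase-like protein made by monocytes and by macrophages activated through IL-4 (gene ID 12655, chr3:106147554-106167564), had the fewest reads of the 10. Its levels were 5.80, 3.41 and 3.16 CPM in TAA, 1.10, 2.12 and 2.32 after 2 weeks, and 1.13, 1.18 and 0.624 after 5 weeks. Every rhCYGB library was below every TAA library, and replicate 12 was the highest of all. The log2 change was -1.16 ± 0.36 after 2 weeks (adjusted p = 0.102) and -2.08 ± 0.38 after 5 weeks (adjusted p = 0.0449), the second being 76.3% lower. That 5-week call held only without replicate 27 (adjusted p = 0.0483) and ended without any other library (0.0556 to 0.165), with a log2 change of -2.24 to -1.75. The 2-week change passed in 3 of 9 alternatives and in 0 of the 9 fits without 1 library. The 3 were library totals alone (adjusted p 0.0387), DESeq2 (0.0270) and log2(FPKM + 1) (0.0239). Neutrophil precursors make Chil3 too. The 14 neutrophil markers summed to 150 to 376 CPM in the TAA livers, with 226 to 463 in the 2-week group and 72.7 to 277 in the 5-week group, and the range of each course overlapped that of TAA. Most of each sum was Lcn2, at 133 to 296, 205 to 425 and 50.9 to 254 CPM. The rest of the list summed to 17.6 to 80.4, 20.8 to 52.0 and 16.4 to 23.1 CPM. The part of neutrophils and their precursors in the values of Chil3 was not tested. Ly6g, a defining marker of mature neutrophils, was below the count filter.

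Cd68, a lysosomal glycoprotein that all macrophages hold (gene ID 12514, chr11:69664213-69666170), held 45.5, 39.3 and 52.8 CPM in TAA, 36.4, 46.4 and 28.6 after 2 weeks, and 19.2, 42.7 and 29.4 after 5 weeks. The groups overlapped in both comparisons, and replicate 23 was again the lowest. Its adjusted p was 0.518 after 2 weeks and 0.280 after 5 weeks. The size of its change was not well fixed: after 2 weeks it was -0.15 without replicate 19, -0.20 without replicate 14 and -0.50 without replicate 18, and -0.56 with the length trend removed, -0.64 with library totals and -0.65 on the log2(FPKM + 1) scale. After 5 weeks it was -0.37 without replicate 23 and -0.92 without replicate 27 (adjusted p 0.515 and 0.0820). Cd68 passed the test in none of these. Of 20 pan-macrophage and leukocyte markers, edgeR called 0 in either course. At an unadjusted p under 0.05, 1 was lower and 2 were higher after 2 weeks, and 8 were lower and 2 higher after 5 weeks. DESeq2 called 1 lower after 2 weeks, where it called 1724 of all 14731 tested genes (996 higher). After 5 weeks it called 2 lower and 1 higher, where it called 1178 of all (624 higher). The summed level of the 20 markers was 941 to 1080 CPM in the TAA livers, 804 to 1100 in the 2-week group and 613 to 823 in the 5-week group, so the 5-week range lay below TAA.

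To set each gene against the macrophage marker of its own library, the FPKM of the other 9 genes was divided by that of Cd68. After 2 weeks the ratio of Gpnmb was 0.0967 to 0.230, below the 0.259 to 0.443 of TAA. The ratio of Mmp12 was 0.0718 to 0.118 against 0.157 to 0.220, and that of Cx3cr1 was 0.0262 to 0.0308 against 0.0363 to 0.0504. Trem2 was also apart, at 0.280 to 0.315 against 0.325 to 0.429. These 4 of 9 genes were thus lower per unit of Cd68, as 2.8% of all tested genes were, and the other 5 overlapped TAA. The ratios were not corrected for the gene length trend. With that trend removed, the 2-week log2 change of Cd68 went from -0.31 to -0.56. Gpnmb went from -1.70 to -1.57, Mmp12 from -1.36 to -1.23 and Cx3cr1 from -0.97 to -0.83, each closer to Cd68. Trem2 went from -0.60 to -0.89. After 5 weeks only Chil3 was apart, at 0.0170 to 0.0464 against 0.0475 to 0.101, and the other 8 overlapped, where 1.67% of all tested genes were lower and apart. With 3 libraries against 3, an exact permutation test cannot give a two-sided p below 0.10. The Mmp12 ratio was 0.136 to 0.250 after 5 weeks, above all 2-week libraries (as for 2.93% of all tested genes) and overlapping TAA. The ratio for Gpnmb in 5-week replicate 23 (0.429) came within the TAA range, where Cd68 itself was lowest.

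**Figure D3:**
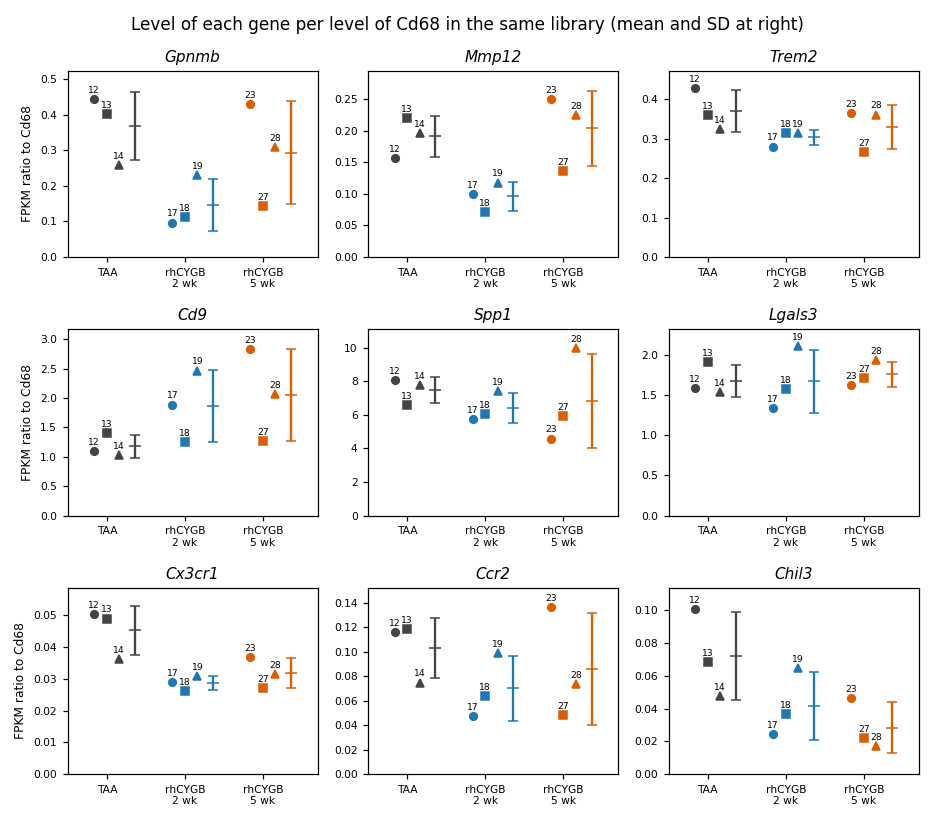
FPKM of each gene divided by the FPKM of Cd68 in the same library (linear axes that start at 0; points are libraries with their replicate number, bars the mean and SD of 3). The 2-week libraries lie wholly below TAA for Gpnmb, Mmp12, Trem2 and Cx3cr1, and the 5-week libraries do so only for Chil3.

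Between the courses, edgeR called 0 of the 10 genes, where it called 3 of all tested genes (0.0204%). At an unadjusted p under 0.05, which 23.2% of all tested genes reached, Gpnmb and Mmp12 were higher and Chil3 lower after 5 weeks than after 2 weeks. DESeq2 called 1 of the 10, Mmp12 (adjusted p = 0.00447), and 796 of all 14731 tested genes. The log2 difference was 0.61 ± 0.25 for Gpnmb (adjusted p = 0.199) and -0.92 ± 0.38 for Chil3 (adjusted p = 0.199). Mmp12 was the only 1 of the 10 whose courses did not overlap, with 5 weeks higher, as 10.9% of all tested genes were. A difference in the effect of the 2 courses was therefore shown by edgeR for none of the 10 genes.

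Neither main ligand of the recruitment receptors passed the test. Ccl2, the main ligand of Ccr2, held 10.7, 7.02 and 11.9 CPM in TAA, 4.36, 6.17 and 7.98 after 2 weeks, and 3.35, 5.53 and 2.57 after 5 weeks. The 5-week libraries all lay below TAA, with a log2 change of -1.37 ± 0.33 (adjusted p = 0.0707), and the 2-week libraries overlapped it, with -0.67 ± 0.32 (adjusted p = 0.239). Without 1 library the 5-week adjusted p of Ccl2 ran from 0.0388 to 0.234. Cx3cl1, the ligand of Cx3cr1, averaged 6.00 ± 1.23 CPM in TAA, 4.79 ± 1.28 after 2 weeks and 2.697 ± 1.36 after 5 weeks, with log2 changes of -0.32 ± 0.37 (adjusted p = 0.613) and -1.15 ± 0.38 (adjusted p = 0.145). Ccl7, Ccl8 and Ccl12, further ligands of Ccr2, averaged 0.572, 0.0991 and 0.196 CPM in TAA, levels with few reads behind them, and none passed the test. Ccl8 nonetheless held 0.227, 0.735 and 0.310 CPM in the 2-week libraries, all above the 0.0325, 0.0588 and 0.206 of TAA, with a log2 change of 2.07 ± 0.71 (adjusted p = 0.126).

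Among partners of the scar-associated genes, Tyrobp, the adaptor of Trem2, averaged 42.0 ± 6.74 CPM in TAA, 42.1 ± 4.99 after 2 weeks and 28.8 ± 8.82 after 5 weeks. Its log2 change was 0.00 ± 0.22 (adjusted p = 0.992), turning to -0.32 both with library totals alone and with log2(FPKM + 1), and -0.55 ± 0.22 after 5 weeks (adjusted p = 0.214). Cd44, a receptor of osteopontin, changed by -0.38 ± 0.19 (adjusted p = 0.249) and -0.46 ± 0.19 (adjusted p = 0.226) on the log2 scale, passing in neither. Csf1, the growth factor of macrophages, had the lowest p of the ligands and partners, with a log2 change of -0.36 ± 0.19 after 2 weeks (adjusted p = 0.263) and -0.80 ± 0.19 after 5 weeks (adjusted p = 0.0669). Of the 29 ligands and partners tested, edgeR called 0 in either course. At an unadjusted p under 0.05, 4 were lower and 3 higher after 2 weeks, and 11 were lower and 0 higher after 5 weeks. DESeq2 called 2 higher after 2 weeks and 3 lower after 5 weeks, beside 1724 (996 higher) and 1178 (624 higher) of all 14731 tested genes. Csf2 was under 0.1 CPM in every library.

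Of 34 further genes described in scar- and lipid-associated macrophages, 2 fell and 1 rose after 2 weeks. In that course 1.34% of all 14731 tested genes were called lower and 291 genes were called higher. Lpl, the lipase that such cells use to take up fat, fell by 1.09 ± 0.25 on the log2 scale (adjusted p = 0.0491), and Cd84, a receptor of leukocytes, fell by 0.77 ± 0.16 (adjusted p = 0.0392). Acp5, the tartrate-resistant acid phosphatase, rose by 0.75 ± 0.17 (adjusted p = 0.0449). The other 31 were not called, and the median log2 change of the 34 was -0.13. After 5 weeks edgeR called 0 of the 34, 10 were lower and 0 higher at an unadjusted p under 0.05, and the median was -0.26. DESeq2 called 6 of the 34 lower after 5 weeks, where it called 1178 of all 14731 tested genes (624 higher). The summed level of the 34 was 18700 to 22200 CPM in the TAA livers, 29600 to 35700 in the 2-week group and 19000 to 31500 in the 5-week group. Most of it was Apoe, an apolipoprotein that hepatocytes also make, at 13000 to 16300, 23900 to 29800 and 14000 to 25900 CPM, and the other 33 genes summed to 5750 to 5850, 5710 to 5920 and 5000 to 5600 CPM.

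Of 24 further genes of recruited monocytes, 1 fell in each course, where 1.34% and 0.604% of all tested genes were called lower. The gene was Thbs1, thrombospondin 1, a matrix protein that platelets and stromal cells release as well. It held 7.49, 10.8 and 13.9 CPM in TAA, 2.56, 3.18 and 2.81 after 2 weeks, and 1.81, 2.86 and 4.25 after 5 weeks. All rhCYGB libraries were below TAA, and the log2 change was -1.91 ± 0.32 (adjusted p = 0.0255) and -1.85 ± 0.32 (adjusted p = 0.0406). The median log2 change of the 24 was -0.35 after 2 weeks and -0.59 after 5 weeks. Their summed level was 4230 to 5470 CPM in the TAA livers, 5660 to 6980 in the 2-week group and 4000 to 4750 in the 5-week group. Most of it was Hp, haptoglobin, which hepatocytes also make, and the other 23 genes summed to 1190 to 1420, 1060 to 1210 and 1250 to 1440 CPM. Among markers of resident Kupffer cells, 1 rose after 2 weeks, where 291 of all 14731 tested genes were called higher. Clec4f, a lectin that marks Kupffer cells in mice, held 57.4, 80.7 and 72.0 CPM in TAA, 114, 115 and 149 after 2 weeks, and 74.6, 106 and 83.0 after 5 weeks. It rose 1.80-fold after 2 weeks (log2 0.85 ± 0.18, adjusted p = 0.0411), and after 5 weeks its log2 change was 0.33 ± 0.18 (adjusted p = 0.365). Of the 12 Kupffer cell markers, the other 11 were not called after 2 weeks, and the median log2 change of the 12 was 0.30, or -0.03 with library totals alone. After 5 weeks edgeR and DESeq2 called 0 of the 12, with 1 lower and 1 higher at an unadjusted p under 0.05.

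**Figure D4:**
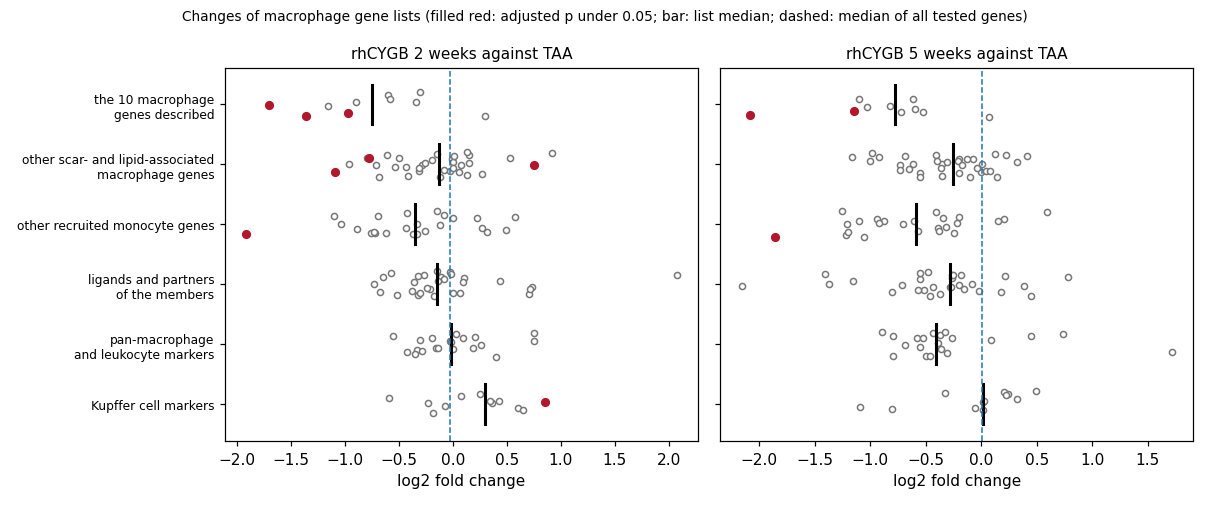
Log2 change of every tested gene in 6 lists of macrophage, ligand and marker genes for rhCYGB 2 weeks and 5 weeks against TAA; points are genes (filled where the adjusted p is under 0.05), the bar is the median of the list and the dashed line that of all tested genes. The median of the 10 macrophage genes lies at -0.75 and -0.77, that of the other scar- and lipid-associated genes at -0.13 and -0.26, and that of the Kupffer cell markers at 0.30 and 0.02 (-0.03 and -0.21 with library totals alone).

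The calls of Lpl, Cd84, Acp5, Thbs1 and Clec4f after 2 weeks each ended when TAA replicate 12, 13 or 14 or 2-week replicate 17 or 18 was left out, the calls of Lpl, Acp5 and Clec4f also without replicate 19 or 28, and that of Cd84 also without replicate 28. Their adjusted p-values without 1 library ran up to 0.196, 0.157, 0.181, 0.117 and 0.124 in that order. The 5-week call of Thbs1 ended without any single library (adjusted p 0.0531 to 0.165). No direction changed in these fits.

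Markers of other liver cells were read in the same libraries. Of 16 myofibroblast and stellate cell markers, 3 fell after 2 weeks (Acta2, Col1a2 and Lum) and 2 after 5 weeks (Acta2 and Col1a2). Of all tested genes, 1.34% and 0.604% were called lower. The summed level of the 16 markers was 1470 to 2170 CPM in the TAA livers, 567 to 995 in the 2-week group and 415 to 903 in the 5-week group. The median log2 change of these 16 was -1.10 and -1.34. Acta2, smooth muscle actin of contractile myofibroblasts, averaged 52.8 ± 21.3 CPM in TAA, 11.9 ± 5.45 after 2 weeks and 6.95 ± 2.71 after 5 weeks, a log2 change of -2.15 ± 0.42 (adjusted p = 0.0327) and -2.93 ± 0.43 (adjusted p = 0.0361). The 2-week calls of Acta2, Col1a2 and Lum each ended without replicate 12, 13, 14, 17, 18, 19 or 28, with adjusted p-values up to 0.147, 0.180 and 0.169. After 5 weeks, the call of Acta2 held only without replicate 27 (adjusted p = 0.0298, otherwise up to 0.165), and that of Col1a2 ended without any single library (0.0614 to 0.187). The 15 mesothelial, muscle and gallbladder markers summed to 16.2 to 37.7 CPM in TAA, at most 13.6 in any rhCYGB library, with Ckm and Muc5b under 0.1 CPM throughout. Dendritic cell markers summed to 157 to 185 CPM in the TAA livers, 236 to 298 in the 2-week group and 169 to 237 in the 5-week group. Most of that sum was Bst2, at 135 to 165, 215 to 273 and 153 to 216 CPM. The rest of the list summed to 19.5 to 25.4, 19.4 to 25.3 and 15.4 to 23.6 CPM. Of the 12 markers, 1 rose after 2 weeks, Bst2, where 291 of all 14731 tested genes were called higher. The call of Bst2 ended without replicate 12, 13, 14, 17, 18 or 28 (adjusted p up to 0.176). The part of these cells in the values of the 10 macrophage genes was not tested.

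The genes whose pattern over the 9 libraries was most like that of Gpnmb, Mmp12 and Trem2 were found by the root mean square difference of log2 CPM after centring each gene, among 12413 other genes that averaged 1 CPM or more. For Gpnmb, they were Bub1 (0.208), Cdc6 (0.221), Kitl (0.257), Plau (0.259) and Hk2 (0.264). Bub1 and Cdc6 act in cell division, and Plau is urokinase. For Mmp12, they were Arhgap15 (0.174), Btc (0.177), Rnf39 (0.198), Zfand2a (0.228) and Timp3 (0.228), the last an inhibitor of metalloproteinases. For Trem2, they were Mxra8 (0.0791), Tulp3 (0.109), Man1c1 (0.122), P3h3 (0.130) and Dchs1 (0.133), of which P3h3 modifies collagen. Among the 10 macrophage genes, the nearest to Gpnmb was Ccr2, ranked 69th (0.400), and the nearest to Mmp12 was Gpnmb, ranked 765th (0.445). The nearest to Trem2 was Cx3cr1, ranked 79th (0.201), followed by Cd68 (0.203). Others of the 10 lay far down the order. Cd9 ranked 8212th for Gpnmb, Chil3 ranked 11614th for Mmp12, and Gpnmb and Chil3 ranked 9427th and 10366th for Trem2. These distances describe 9 libraries of 3 groups.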

How the data were processed

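Poly(A)-selected, strand-marked RNA of 9 whole-liver samples was sequenced from both ends. The submitters' processing notes give HISAT2 2.1.0, StringTie 1.3.4d and FastQC 0.11.7 as tools and mm10 as the build. The main values are the deposited estimated counts per gene, which are whole numbers. How they were made from StringTie output, and whether strand was used, is not given in the sources used here. The deposited FPKM columns, made by the authors, gave levels between genes, ratios to Cd68 and values for an alternative.

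Counts were rounded, filtered with filterByExpr (minimum count 10, minimum total 15), scaled by TMM and tested by the quasi-likelihood F test of edgeR 4.0.16 in R 4.3.3. All 9 libraries entered 1 fit with 3 groups (6 residual degrees of freedom), with Benjamini-Hochberg adjustment over 14731 genes, and a gene was called where the adjusted p was below 0.05. The common biological coefficient of variation was 24.9%. Standard errors (SE) are the log2 change over the square root of F. Alternatives used DESeq2 1.42.0 and limma 3.58.1 on log2(FPKM + 1), other scalings, no filter, removal of a gene length trend, and fewer libraries. The fits were tested on simulated data. The 10 genes, the other gene lists and the named genes were chosen with earlier results of these data known. The named genes were all 10, up to 4 called genes of every list (otherwise the gene with the lowest p), 7 ligands and partners, and the 5 nearest genes of Gpnmb, Mmp12 and Trem2. No pair of replicates agreed within counting noise. Scaled by library totals instead of TMM, the median of all tested genes shifted by -0.33, -0.22 and 0.11 in the 3 comparisons (2 weeks and 5 weeks against TAA, and 5 against 2 weeks), and log2(FPKM + 1) by -0.17, -0.14 and 0.06, so directions are relative to the TMM scale.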

Additional observations from a re-analysis of the deposited data

How the results depend on the processing

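Against TAA, the log2 change kept its sign under all 18 alternatives for the 9 genes other than Cd9. Calls were less stable: of the 540 refitted changes of the 10 genes over the 3 comparisons, 451 kept their direction and side of the threshold, 28 newly passed, 43 no longer passed and 18 reversed. With 3 libraries a group, many adjusted p-values lie close to 0.05. Whether depth limits the calls was not tested. No paired analysis was possible because the groups share no replicate number.

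In the order 2 weeks against TAA, 5 weeks against TAA and 5 weeks against 2 weeks, 488, 190 and 3 genes were called in all, of which 3, 2 and 0 were among the 10. DESeq2 size factors in edgeR gave 483, 191 and 3, with 3, 2 and 0 of the 10. Library totals alone gave 1722 and 504 against TAA, with 6 and 6 of the 10, and the share of calls that were higher fell from 59.6% to 6.39% after 2 weeks and from 53.2% to 7.54% after 5 weeks. Upper quartile scaling gave 326 and 77 (45.1% and 41.6% higher), with 2 and 1 of the 10, and no filter gave 388 and 105, with 3 and 1. DESeq2 gave 1724, 1178 and 796, with 5, 6 and 1. The log2(FPKM + 1) values gave 1983, 1001 and 5 (7.31% and 6.89% higher against TAA, and 1 of the 5 between the courses), with 6, 6 and 0. Fits of only the groups compared gave 1023, 1 and 0, with 4, 0 and 0. With a length trend removed they were 638, 605 and 6, with 3, 5 and 0. Without replicates 17, 18 and 23 together they were 12, 7 and 5, with 0 of the 10 in each. Leaving out 1 library gave 1 to 1095, 0 to 240 and 1 to 1889 genes, and 0 to 4, 0 to 2 and 0 to 1 of the 10, the 1889 without replicate 27 and the 1095 without replicate 23.

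The sign of Cd9 turned after 2 weeks with library totals (-0.038) and log2(FPKM + 1) (-0.046), and after 5 weeks with these (-0.14 and -0.15) and with upper quartile scaling (-0.014). Between the courses, removing the length trend turned Trem2 to 0.069, Cd9 to 0.074, Spp1 to 0.049 and Lgals3 to 0.013. Without replicates 17, 18 and 23 together, Trem2 was 0.28, Spp1 0.36, Lgals3 0.10, Cx3cr1 0.23 and Cd68 0.34. Leaving out 1 library, the difference between the courses ran from -0.36 to 0.0084 for Trem2 (above 0 without replicate 18), from -0.45 to 0.22 for Spp1 (above 0 without replicate 18 or 23, at 0.010 and 0.22) and from -0.47 to 0.087 for Lgals3 (above 0 without replicate 23). Of the list genes named, Tyrobp after 2 weeks was -0.32 with library totals, -0.050 with upper quartile scaling, -0.0017 with no filter, -0.32 with log2(FPKM + 1), -0.011 with only the groups compared and -0.46 with the length trend removed, and ran from -0.14 to 0.099 without 1 library. Ccl7 after 2 weeks was 0.19 without replicates 17, 18 and 23 and ran from -0.58 to 0.45 without 1 library (above 0 without replicate 14), and Mmp9 ran from -1.11 to 0.31 (above 0 without replicate 12). The causes of these reversals were not tested.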

Other observations

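Of 14 tested markers of T and NK cells, 3 rose after 2 weeks, where 291 of all 14731 tested genes were called higher. These 3 were Gzmk and Nkg7, proteins of cytotoxic granules, and Cd8b1, a chain of the CD8 receptor. Their log2 changes were 2.22 ± 0.50 for Nkg7 (adjusted p = 0.0473) and 2.55 ± 0.57 for Cd8b1 (adjusted p = 0.0455). Gzmk was at least 0.639 CPM in each 2-week library and near 0 in TAA (0.0196 ± 0.0339 CPM, SD, n = 3), with an adjusted p of 0.0255. After 5 weeks edgeR called 0 of the 14, with 3 higher at an unadjusted p under 0.05. DESeq2 called 1 higher after 5 weeks, where it called 624 of all 14731 tested genes higher. Each of the 3 edgeR calls after 2 weeks ended without TAA replicate 12, 13 or 14 or 2-week replicate 17 or 18, with adjusted p-values up to 0.170. The call of Nkg7 also ended without replicate 19 or 28, and that of Cd8b1 also without replicate 28. Among 15 hepatocyte markers, Cyp2e1, an enzyme that activates thioacetamide, rose 2.60-fold after 5 weeks (log2 1.38 ± 0.21, adjusted p = 0.0361). After 2 weeks it was 1.67-fold higher than in TAA (log2 0.74 ± 0.20, adjusted p = 0.0739). The 5-week call held without replicate 12 or 27 and ended without any other library, with adjusted p-values up to 0.165.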
